A study of Mus musculus with 10 samples.

Results

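Accessible chromatin around 9 genes of bone morphogenetic protein (BMP) signalling was examined in the mouse epicardium and in epicardium-derived cells (EPDCs). The genes were the ligands *Bmp2*, *Bmp4*, *Bmp5*, *Bmp6* and *Bmp7*, the type I receptor gene *Bmpr1a*, the secreted antagonists *Bmper* and *Grem1*, and the target gene *Id1*. A region was taken as a member when at least 1 ATAC-seq summit assigned to it lay inside one of these genes or within 25 kb of it on mm10, which gave 182 regions of 184764 in the whole series. Epicardium was collected at E11.5 (3 libraries) and at E17.5 (3 libraries), and EPDCs gave another 3, 1 from E12.5 (E12.5 sample 1) and 2 from E13.5 hearts (E13.5 samples 1 and 2). The series lists 10 samples, and 2 of them, technical replicates, share 1 peak list that was counted as 1 library, E13.5 sample 2. Every embryo carried Rosa26tdTomato and Wt1CreERT2/+ and had received tamoxifen through the mother at E9.5, so that cells expressing *Wt1* at that time, and their descendants, carried tdTomato. Cells were sorted as CD31-tdTomato+PDPN+ for epicardium and CD31-tdTomato+PDPN- for EPDCs, and the labels give the strain as C57BL/6J. Each epicardial sample pooled littermate hearts, 6 at E11.5 and 4 at E17.5. The marking depends on a Cre inserted at *Wt1* and on the moment of tamoxifen, so a sorted population holds the marked cells and not all epicardial descendants.

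BMPs are secreted ligands of the TGF-beta superfamily that bind complexes of type I and type II serine/threonine kinase receptors. The activated type I receptor phosphorylates receptor-regulated SMADs, which enter the nucleus with SMAD4 and switch on targets such as the *Id* genes, whose products hold basic helix-loop-helix factors away from DNA. Secreted antagonists bind the ligands outside the cell and set where the signal reaches. In the heart BMPs act in formation of the proepicardium, in epithelial-to-mesenchymal transition and in valve and septum development.

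In ATAC-seq the Tn5 transposase cuts open chromatin, and a summit marks the highest point of a pile of fragments. The value given here for a region is the rank percentile of its strongest summit among all regions called in the same library, ranked by the caller's −log10 p, so 100 is the most significant region of that library and 0 means that no summit was called. A value of 0 places a region below the threshold of the peak caller and does not show closed chromatin. The lists give no read totals, so the depth behind each value is unknown. The libraries held between 82804 and 121124 called regions. Over the 47553 regions called in every library the median of the regions' differences in mean percentile was −3.72 points for E17.5 against E11.5 and −2.64 points for EPDCs against E11.5. This general shift was −0.09 points for the stages and −0.51 points for EPDCs against E11.5 when equal numbers of top regions were ranked. Each difference was therefore read in 5 ways (percentile, percentile among equal numbers of top regions, log2 depth-normalised score, percentile centred within each library, and percentile of any peak interval covering the region), and the counts that passed in all 5 readings are given beside the others.

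The sorted populations were checked on promoters of marker genes. Of 12 epicardial markers, 10 had a summit at the promoter in all 9 libraries, with *Wt1* at 96.6 ± 0.807 (SD, n = 3) at E11.5, 90.3 ± 0.803 at E17.5 and 95.2 ± 2.10 in EPDCs, whereas *Msln* was called only at E17.5. The *Upk3b* promoter was at 98.6 ± 0.430, 97.1 ± 0.427 and 45.2 ± 25.6 in the same order, and that of *Postn*, 1 of 9 mesenchymal markers, at 0, 43.1 ± 3.08 and 75.9 ± 5.59. Of the 9, 2 were higher in EPDCs than at E11.5 in all 5 readings and 0 lower, and against E17.5 2 were higher and 1, *Pdgfra*, lower (−14.5 ± 3.75 points, adjusted p = 0.0107). Of the 12 epicardial markers, 2 were lower in EPDCs than at E11.5 in all 5 readings and 0 higher. Against E17.5, 6 were lower and 0 higher. The promoter of *Pdpn*, the gene of the sort marker, was at means of 90.0, 82.5 and 85.8 at E11.5, E17.5 and in EPDCs. In the main reading EPDCs were lower than E11.5 (−4.20 ± 1.075 points, adjusted p = 0.0118) and higher than E17.5 (3.26 ± 1.075, adjusted p = 0.0334). Neither difference passed in all 5 readings. The defining endothelial promoters of *Pecam1*, *Cdh5*, *Tie1* and *Emcn*, that of the blood marker *Ptprc* and that of the cardiomyocyte marker *Myh6* had no summit in any library, whereas *Tek*, *Kdr*, *Tnnt2*, *Actn2* and *Csf1r* had one in every library. Some markers of other cells moved between the groups in all 5 readings. The promoters of the cardiomyocyte genes *Tnnt2* (means of 86.4, 60.3 and 79.1 at E11.5, E17.5 and in EPDCs) and *Actn2* (92.7, 79.6 and 89.8) were lower at E17.5 than in either other group, that of the blood gene *Lyz2* (10.8, 0.292 and 47.6) was higher in EPDCs, and that of the endothelial gene *Kdr* (88.2, 87.5 and 91.5) was higher in EPDCs than at E11.5. Others went the other way. The cardiomyocyte gene *Myl7* (31.9, 65.8 and 0) was higher at E17.5 than at E11.5 or in EPDCs, and the blood gene *Cd68* (52.3, 73.3 and 11.1) was lower in EPDCs than at either stage. Among all 6 cardiomyocyte, 5 blood and 6 endothelial markers, 2, 0 and 0 were lower at E17.5 than at E11.5 in all readings and 1, 1 and 0 higher. In EPDCs against E11.5, 0, 1 and 0 were lower and 0, 1 and 1 higher. Against E17.5, 1, 1 and 0 were lower and 2, 1 and 0 higher. The part of other cell types in the differences given here was not tested. The 3 EPDC lists also held 252 to 268 summits off the assembled nuclear chromosomes, against 0 in the epicardial lists, so in every comparison with EPDCs the population, the stage and the processing of the list cannot be told apart.

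Sequences are shown for the 2 genes whose promoters differed between the stages in all 5 readings and for 6 regions away from the start sites that carry the patterns described here. Promoters are those of RefSeq on GRCm38.p6, 250 bases before to 50 bases after the annotated start, and the table held 6 of the 9 genes (*Bmp4*, *Bmp5*, *Bmp6*, *Bmpr1a*, *Bmper* and *Grem1*). Capitals mark exact matches to 5 short motifs searched on both strands. GATA factors are known to recognise AGATAA, T-box factors recognise AGGTGT, and BMP-activated SMADs recognise GGCGCC. The AP-1 motif was written TGANTCA, and for TEAD factors the letters were GGAATG. Promoters are written 5′ to 3′ on the gene's own strand.
Bmp5 promoter, chr9:75775115-75775414, + strand: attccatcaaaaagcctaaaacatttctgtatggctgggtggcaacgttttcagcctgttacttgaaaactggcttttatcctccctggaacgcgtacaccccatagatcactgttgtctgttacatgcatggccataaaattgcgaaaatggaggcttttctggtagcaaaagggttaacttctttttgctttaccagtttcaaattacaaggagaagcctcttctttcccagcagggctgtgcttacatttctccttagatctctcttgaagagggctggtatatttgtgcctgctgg
Grem1 promoter, chr2:113758599-113758898, - strand: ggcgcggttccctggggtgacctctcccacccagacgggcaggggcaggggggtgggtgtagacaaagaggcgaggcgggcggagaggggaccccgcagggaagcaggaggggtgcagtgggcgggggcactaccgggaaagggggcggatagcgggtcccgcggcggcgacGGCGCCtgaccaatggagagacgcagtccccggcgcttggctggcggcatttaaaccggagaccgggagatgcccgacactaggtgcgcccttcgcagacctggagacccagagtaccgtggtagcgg
The regions are windows of 201 bases centred on the summit on the same build, written on the + strand and named by the distance of the summit from the start site in the direction of transcription. The first set holds a region called only at E11.5, one called at E11.5 and in EPDCs, and one called only at E17.5.
Bmp4 +18.0 kb, chr14:46372563-46372763, + strand: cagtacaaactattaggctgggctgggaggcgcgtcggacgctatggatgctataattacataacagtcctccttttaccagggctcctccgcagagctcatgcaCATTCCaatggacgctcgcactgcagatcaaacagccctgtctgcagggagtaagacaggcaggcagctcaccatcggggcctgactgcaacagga
Bmp5 +58.1 kb, chr9:75833401-75833601, + strand: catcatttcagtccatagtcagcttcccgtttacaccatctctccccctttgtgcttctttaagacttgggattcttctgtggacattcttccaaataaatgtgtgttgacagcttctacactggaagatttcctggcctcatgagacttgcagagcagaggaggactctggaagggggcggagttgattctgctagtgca
Bmper +242.3 kb, chr9:23465320-23465520, + strand: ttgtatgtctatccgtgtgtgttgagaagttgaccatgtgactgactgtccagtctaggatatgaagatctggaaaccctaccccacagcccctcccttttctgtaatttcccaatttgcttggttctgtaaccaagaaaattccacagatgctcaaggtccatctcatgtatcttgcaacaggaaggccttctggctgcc
The second set holds 2 regions that were lower in EPDCs and 1 that was higher there.
Bmp7 -25.1 kb, chr2:172965353-172965553, + strand: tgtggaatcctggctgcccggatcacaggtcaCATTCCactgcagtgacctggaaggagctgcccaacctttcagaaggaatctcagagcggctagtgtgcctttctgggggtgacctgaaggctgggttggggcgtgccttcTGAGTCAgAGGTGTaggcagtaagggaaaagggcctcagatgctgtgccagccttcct
Bmper +45.9 kb, chr9:23268878-23269078, + strand: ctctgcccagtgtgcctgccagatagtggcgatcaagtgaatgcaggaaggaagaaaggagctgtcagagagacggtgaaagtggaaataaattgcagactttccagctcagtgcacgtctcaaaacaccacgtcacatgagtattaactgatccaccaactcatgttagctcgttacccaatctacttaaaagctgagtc
Id1 -12.2 kb, chr2:152723949-152724149, + strand: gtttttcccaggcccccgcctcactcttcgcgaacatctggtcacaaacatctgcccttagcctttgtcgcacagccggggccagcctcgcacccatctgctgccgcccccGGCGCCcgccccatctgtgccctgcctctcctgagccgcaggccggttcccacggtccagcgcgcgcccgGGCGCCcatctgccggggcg

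Of the 182 regions, 16 were promoters (within 1 kb of an annotated start of the gene), 110 lay elsewhere in the gene bodies, 30 upstream and 26 downstream. Away from the promoters 116 regions were intronic, 44 intergenic and 6 in coding exons, and 6 members lay at the promoter of another gene. A summit was called in all 9 libraries at 48 members (26.4%, against 25.7% of all regions) and in 1 library only at 42 (23.1%, against 15.8%). The 9 genes together had 110, 110 and 106 called regions in the E11.5 libraries and 84, 105 and 103 in the E17.5 libraries (exact two-sided permutation test, p = 0.10, the smallest that 3 against 3 libraries allow). In EPDCs the numbers were 77, 76 and 110, which is 0.0872%, 0.0795% and 0.0927% of the regions called in each library. As a share of each library's regions, the stages gave 0.094% ± 0.007 and 0.104% ± 0.006 (SD; exact permutation p = 0.30). *Bmper* and *Bmp6*, the longest genes, had the most regions (39 and 36) and *Grem1* the fewest (4).

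To ask which BMP regions changed as the epicardium matured, E17.5 was compared with E11.5 over the 125 members called in at least 3 libraries; these 125 of 182 passed a filter on the number of calls and do not stand for all members. Accessibility was lower at E17.5 in 41 regions and higher in 16 (limma, Benjamini-Hochberg adjustment over all 132794 tested regions), where 31.0% and 11.4% of all tested regions were called. In all 5 readings 20 were lower and 14 higher, against 15.0% and 9.15% of all tested regions. Of the 14 higher regions, 6 were called in the E17.5 libraries alone, and 1 of the 20 lower in the E11.5 libraries alone. These passed the filter only through the group where they are high and had to differ. The other 8 and 19 were called in more than 1 group, but of the 8 at least *Bmp6* +16.2 kb also passed the filter only with the E17.5 libraries. The median difference of the tested members was −5.62 points and that of all tested regions −5.44. The split moved with the scaling, to 23 higher and 22 lower with equal numbers of top regions (101 members tested), 31 and 30 with centred libraries, and 23 and 39 on the log2 score. The whole series moved the same way, with 26.8% of all called regions higher in the main reading, 49.1% with equal numbers, 48.7% centred and 37.7% on the log2 score. The count of higher regions fell from 16 to 8 without E17.5 replicate 2 and to 8 without E17.5 replicate 3. All 4 *Bmp5* regions and both *Grem1* regions that passed in all readings were lower at E17.5, whereas *Bmp6* (4 higher, 1 lower), *Bmper* (4 and 5), *Bmp7* (3 and 3) and *Bmpr1a* (3 and 3) went both ways. The 14 higher regions all lay in these 4 genes, and their counts include the 6 regions called at E17.5 alone, which had to differ.

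EPDCs were compared with the epicardium of each stage with all 9 libraries in one fit, so the comparisons share libraries. Against E11.5, 44 members were lower in EPDCs and 11 higher (28.1% and 13.2% of all tested regions), and 24 and 7 in all 5 readings (14.9% and 10.3%). Of these 24 lower regions 1 was called at E11.5 alone, and of the 7 higher 1 in EPDCs alone, so both had to differ. With equal numbers of top regions the split was 13 higher and 30 lower (101 members tested), and with centred libraries 15 and 34. Over the whole series the share of called regions that were higher was 31.9% in the main reading, 47.0% with equal numbers and 44.3% centred. The count of 11 higher regions fell to 7 without E11.5 replicate 1, 5 without E11.5 replicate 2, 6 without E13.5 EPDC sample 1 and 7 without E13.5 EPDC sample 2. Against E17.5, 29 were lower in EPDCs and 21 higher (19.8% and 24.7%), and 24 and 15 in all 5 readings (16.7% and 18.3%). Of these, 7 of the 24 were called at E17.5 alone and 1 of the 15 in EPDCs alone. At least *Bmp6* +16.2 kb and *Bmp7* +77.7 kb among the 24 also passed the filter only with the E17.5 libraries. The count of 29 fell to 16 without E17.5 replicate 2 and to 18 without E17.5 replicate 3. The median differences of the tested members were −4.71 and −1.88 points, and those of all tested regions −4.33 and 0.51. *Bmper*, which also had the most regions tested, held the most lower regions in both comparisons, 9 and 8 of 30 in all 5 readings. The 8 include +242.3 kb, which was called at E17.5 alone and had to differ. *Bmp2* held no such region, higher or lower, in any comparison.

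**Figure D1:**
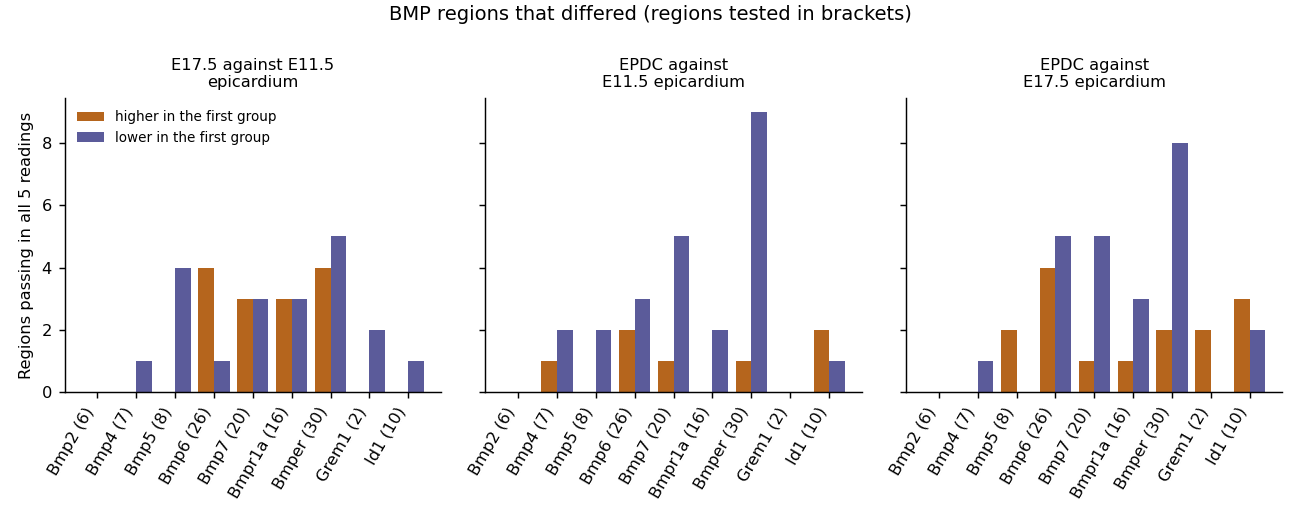
Number of tested regions of each BMP gene (vertical axis) that were higher or lower in the first-named group in all 5 readings, for the 3 comparisons; the number of regions tested for the gene is in brackets. *Bmper* has 9 lower regions in EPDCs against E11.5 epicardium, and *Bmp2* has none in any comparison. The bars include regions called in 1 group alone, which had to differ.

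The strongest promoter region of each gene was called in all 9 libraries. In E11.5 epicardium the mean percentiles ran, from high to low, *Bmp6* 97.6, *Bmp7* 93.9, *Bmper* 92.3, *Id1* 90.3, *Bmpr1a* 87.5, *Bmp4* 76.5, *Bmp5* 71.3, *Bmp2* 67.6 and *Grem1* 59.6. The ranges of the 3 libraries overlapped between neighbours in this order except between *Bmp6* and *Bmp7*, *Bmpr1a* and *Bmp4*, and *Bmp2* and *Grem1*. At E17.5 the *Bmp5* and *Grem1* promoters had dropped to 32.2 and 26.0, while the other 7 lay between 67.0 and 97.3. In EPDCs *Grem1* was back at 63.5 and *Bmp5* was at 24.3. These levels rank regions of equal width and are not levels of transcript.

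**Figure D2:**
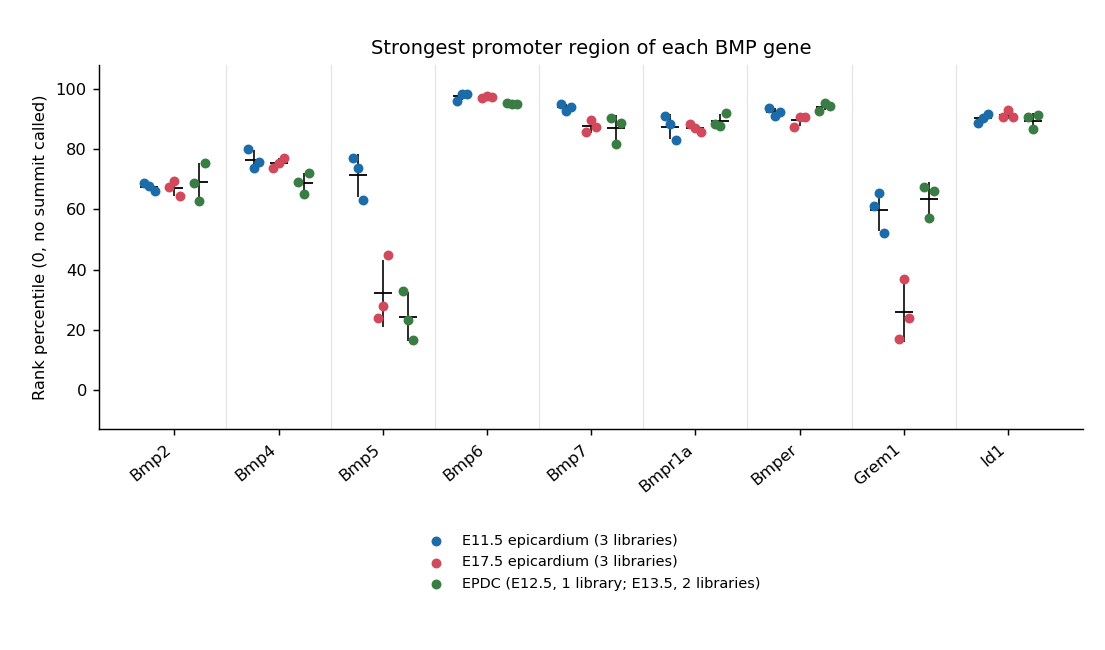
Rank percentile of the strongest promoter region of each BMP gene in each library; points are libraries, horizontal marks the group mean and vertical lines 1 SD over 3 libraries. *Bmp5* falls from a mean of 71.3 at E11.5 to 32.2 at E17.5 and 24.3 in EPDCs, whereas *Grem1* falls only at E17.5 (26.0) and *Id1* is between 89.5 and 91.4 in all groups.

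*Bmp2* (chr2:133552159-133562885, + strand), a ligand needed for endocardial cushion formation, had 7 regions. Its promoter region was at 68.8, 67.9 and 66.1 at E11.5, 67.3, 69.5 and 64.3 at E17.5 and 68.7, 62.7 and 75.6 in EPDCs. The 3 groups overlapped, and neither the stage difference of −0.56 ± 3.71 points (SE; adjusted p = 0.962) nor that of EPDCs against E11.5 (1.40 ± 3.71, adjusted p = 0.816) passed the test. The strongest other region, in the coding sequence at +2.5 kb, was at 89.5, 86.5 and 91.3, then 80.3, 82.8 and 80.1, then 82.9, 80.9 and 84.5. All E11.5 libraries lay above the others, with E17.5 lower by 8.04 ± 1.69 points (adjusted p = 0.00422), but on centred percentiles the stage difference was −0.65 points (adjusted p = 0.879). An intergenic region at +18.6 kb was at 49.3, 53.2 and 24.3 at E11.5 and at most 14.8 elsewhere, with a stage difference of −36.1 ± 7.86 points (adjusted p = 0.00517) that with equal numbers of top regions was −20.6 (adjusted p = 0.0656).

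*Bmp4* (chr14:46383520-46390669, − strand), a ligand of the early heart fields and outflow tract, had 10 regions. The promoter was at 80.2, 73.7 and 75.7 at E11.5, 73.9, 75.4 and 77.1 at E17.5 and 69.2, 65.1 and 72.1 in EPDCs. The stages overlapped (difference −1.06 ± 2.74, adjusted p = 0.820), and the lower level in EPDCs against E11.5 (−7.75 ± 2.74, adjusted p = 0.0479) passed in the main reading but not on the log2 score (adjusted p = 0.0952). It was also lost without any 1 of the libraries other than E13.5 sample 2, with adjusted p between 0.0568 and 0.173. An intergenic region at +18.0 kb, beyond the gene's end, was called in the E11.5 libraries only, at 59.7, 74.7 and 67.5. It passed the filter on calls through those libraries alone, so its difference is a description, without a test. Upstream at −7.7 kb the pattern was another: 71.2, 66.0 and 60.6 at E11.5, 51.4, 68.8 and 66.3 at E17.5, and 19.4, 8.12 and 55.2 in EPDCs. The stages did not separate, and EPDCs were lower than E11.5 by 38.4 ± 11.0 points (adjusted p = 0.0204), a call lost without E11.5 replicate 1 (0.0654) or replicate 2 (0.0572), without E12.5 sample 1 (0.0567) or without E13.5 sample 1 (0.0695). Against E17.5 the difference was −34.6 ± 11.0 (adjusted p = 0.0289), and it was lost, with adjusted p between 0.0767 and 0.0943, without E17.5 replicate 2 or 3, E12.5 sample 1 or E13.5 sample 1. The strongest region away from the promoter, in an intron at +3.3 kb and at the promoter of Gm15222, stood at 78.4 to 83.3 in the 6 epicardial libraries and at 85.6 to 86.8 in EPDCs. The difference from E11.5 was 5.49 ± 1.58 points (adjusted p = 0.0202), and leaving out E11.5 replicate 1 or 2 or E13.5 sample 1 gave adjusted p between 0.0559 and 0.0789.

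*Bmp5* (chr9:75775364-75900310, + strand), a ligand that overlaps in function with *Bmp7* in the heart, had 15 regions, of which 9 to 11 were called in each E11.5 library, 2 to 4 at E17.5 and 4 to 6 in EPDCs. Of the 15, 7 were called in 1 library only. Over the whole series a library called 107597 to 121124 regions at E11.5, 82804 to 104959 at E17.5 and 88282 to 118724 in EPDCs. The summit of the *Bmp5* promoter region, at chr9:75775442, lies past the end of the promoter sequence shown above. The region was at 76.9, 73.8 and 63.2 at E11.5, 23.8, 27.9 and 44.8 at E17.5 and 32.9, 23.3 and 16.7 in EPDCs. Every E11.5 library lay above every other library, and the promoter was lower by 39.2 ± 7.38 points at E17.5 (adjusted p = 0.00236) and by 47.0 ± 7.38 points in EPDCs (adjusted p = 0.000986). E17.5 epicardium and EPDCs overlapped (difference −7.87 ± 7.38, adjusted p = 0.434). An intronic region at +6.5 kb followed the same order, at 53.0, 67.0 and 50.9 at E11.5 and at most 10.8 in the 6 other libraries.

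Other *Bmp5* regions were lower at E17.5 than in both other groups. The intronic region at +58.1 kb was at 91.7, 90.5 and 89.3 at E11.5, at 0 in all 3 E17.5 libraries, and at 91.0, 85.0 and 87.3 in EPDCs. Its difference of −90.5 ± 3.56 points between the stages (adjusted p = 1.19e-05) was the greatest among the tested members, and EPDCs stood 87.8 ± 3.56 points above E17.5 (adjusted p = 2.07e-06). EPDCs and E11.5 epicardium differed by −2.72 ± 3.56 points (adjusted p = 0.586). Beyond the 3′ end, the region at +135.0 kb was at 80.9, 81.2 and 70.3, then 16.97, 6.03 and 30.6, then 85.0, 84.4 and 86.7. The E17.5 libraries again lay apart, lower than E11.5 by 59.5 ± 6.21 points (adjusted p = 9.34e-05). Of 4 *Bmp5* regions lower at E17.5 in all readings, the promoter and +6.5 kb were thus also lower in EPDCs, and at +58.1 and +135.0 kb no difference from E11.5 passed the test. At +135.0 kb all EPDC libraries lay above all E11.5 libraries (7.94 ± 6.21 points, adjusted p = 0.342; log2 score, 0.0616).

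*Bmp6* (chr13:38345107-38500302, + strand), a ligand also known for its control of hepcidin in iron balance, had the strongest promoter of the set, at 96.2 to 98.3 in the 6 epicardial libraries and 94.9 to 95.4 in EPDCs. The EPDC difference from E11.5 was −2.38 ± 0.74 points (adjusted p = 0.0291), and on centred percentiles it was 2.57 (adjusted p = 0.357). It was lost without E11.5 replicate 2 (0.101) or 3 (0.0993) or E13.5 sample 1 (0.0874), and the difference from E17.5 (−2.14, adjusted p = 0.0414) was lost without any 1 of the E17.5 or EPDC libraries, with adjusted p between 0.0566 and 0.114. An intronic region at +105.7 kb was at 97.4, 96.3 and 96.8, then 93.7, 93.8 and 93.6, then 90.3, 88.1 and 90.2, with no overlap between the groups. The stage difference of −3.13 points (adjusted p = 0.0150) was lost with equal numbers of top regions (0.0873), on the log2 score (0.615) and by fold enrichment (0.855), and was 4.26 on centred percentiles. That of EPDCs from E11.5 (−7.29, adjusted p = 0.000189) was lost on centred percentiles (0.438). EPDCs lay below E17.5 by 4.15 ± 0.85 points (adjusted p = 0.00315) in all 5 readings, but ranked by fold enrichment the adjusted p was 0.102.

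Introns of *Bmp6* also held regions of opposite direction. At +16.2 kb the values were 15.4, 0 and 0 at E11.5, 54.99, 66.3 and 61.2 at E17.5 and 0, 0 and 40.8 in EPDCs. Without the E17.5 libraries it would not have passed the filter on calls, so its rise of 55.7 ± 10.9 points between the stages is a description, without a test. At +35.7 kb the E11.5 libraries were at 56.8, 63.1 and 64.2, the E17.5 libraries at 69.9, 75.1 and 77.7 and EPDCs at 11.8, 0 and 32.3. EPDCs lay below all epicardial libraries, by 46.6 ± 7.71 points from E11.5 (adjusted p = 0.00131). The stage difference of 12.9 ± 7.71 points did not pass in the main reading (adjusted p = 0.216) and did with equal numbers of top regions (0.00137). Nearer the 3′ end, at +146.2 kb, the order was turned, with 23.0, 45.2 and 54.4 at E11.5, 0, 10.3 and 1.37 at E17.5 and 64.5, 81.6 and 78.9 in EPDCs, which stood 71.1 ± 8.65 points above E17.5 (adjusted p = 0.000155). This region was chosen after its values were seen because it passed in all 5 readings. The same holds for *Bmp5* +6.5 kb above and for others given below that the rule for named regions did not pick. A region at +172.7 kb, within an intron of the neighbouring *Txndc5*, was called in EPDCs only, at 6.83, 55.8 and 66.9.

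*Bmp7* (chr2:172868012-172940321, − strand), a ligand expressed in the developing myocardium and kidney, had 33 regions. The promoter was at 94.9, 92.8 and 94.0 at E11.5, 85.6, 89.8 and 87.4 at E17.5 and 90.3, 81.7 and 88.8 in EPDCs. Its lower level at E17.5 (−6.26 ± 2.13 points, adjusted p = 0.0407) did not pass on the log2 score (adjusted p = 0.214), nor without any 1 of the E11.5 libraries or E17.5 replicate 1 or 3 (0.069 to 0.125). The lower level in EPDCs (−6.98 ± 2.13, adjusted p = 0.0270) did not pass without any 1 of the E11.5 libraries or E13.5 sample 1 (0.0515 to 0.0801). At the upstream edge, the intergenic region at −25.1 kb was at 68.6, 69.3 and 58.0 at E11.5, 69.8, 81.8 and 75.5 at E17.5 and 0, 0 and 5.19 in EPDCs. EPDCs were lower than E11.5 by 63.6 ± 5.46 points (adjusted p = 3.90e-05) and than E17.5 by 74.0 ± 5.46 points (adjusted p = 9.20e-06). Its 201 bases held TEAD, AP-1 and T-box matches, with 1 base between the AP-1 and T-box letters. Less than 1 kb nearer the gene, at −24.2 kb, the region was at 50.4, 50.4 and 57.5 at E11.5, at most 13.0 at E17.5 and 0 in all EPDC libraries. At −25.1 kb the stage difference was 10.4 points (adjusted p = 0.160), and E17.5 was higher with equal numbers of top regions (adjusted p = 0.0116), on the log2 score (0.0214) and on centred percentiles (0.0127). Farther in, −19.1 and −10.5 kb were also lower in both other groups, with differences of −52.6 ± 5.60 and −35.3 ± 8.25 points at E17.5 (adjusted p = 9.58e-05 and 0.00730).

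Past the *Bmp7* 3′ end a cluster of summits changed in shape. The region at +77.0 kb was at 90.7 to 94.7 in the 6 epicardial libraries and 86.2 to 87.6 in EPDCs. At +77.7 kb a separate summit was called at 76.8, 80.8 and 75.0 at E17.5, at 0 in all E11.5 libraries and at 0, 42.6 and 0 in EPDCs. Only with the E17.5 libraries did it pass the filter on calls, so its stage difference of 77.6 ± 10.5 points is a description, without a test. When any interval covering the region was counted, the difference was −1.43 points (adjusted p = 0.471), because the interval of the +77.0 kb summit covers it in the other libraries. The region at +78.5 kb lay outside that interval, at 48.4, 65.4 and 55.4 at E17.5 and 0 in the other 6 libraries, and having passed the filter through E17.5 alone it is given without a test. In the gene body, +50.7 kb was likewise called at E17.5 alone, at 57.6, 37.6 and 37.6, whereas its neighbour at +50.1 kb was higher than E11.5 both at E17.5 (45.0 ± 7.11, adjusted p = 0.000899) and in EPDCs (37.6 ± 7.11, adjusted p = 0.00265).

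*Bmpr1a* (chr14:34410734-34503341, − strand) encodes the type I receptor ALK3, and had 25 regions. The promoter region was at 83.0 to 92.0 over all libraries, with a stage difference of −0.46 ± 2.08 points (adjusted p = 0.921). A companion promoter summit at +0.9 kb was called in 3 libraries only (47.1 and 66.9 at E11.5, 75.3 at E17.5), and none of its differences passed. Upstream, at −14.9 kb in an intron of 9230112D13Rik, a region was called at 54.0, 62.5 and 58.6 at E17.5 and in no other library, which is given without a test for the reason stated at *Bmp4* +18.0 kb. At −5.2 kb the E17.5 libraries were at 85.3, 87.2 and 80.8, above E11.5 (0, 46.2 and 50.7) and EPDCs (26.5, 40.8 and 53.2), with a stage difference of 52.1 ± 12.6 points (adjusted p = 0.00862). The lower level in EPDCs than at E17.5 (−44.3 ± 12.6, adjusted p = 0.0175) was lost without E12.5 sample 1 (0.0531) or E17.5 replicate 2 (0.0507). Intronic regions went the other way. At +53.2 kb the values were 62.0, 69.3 and 72.0 at E11.5, 28.7, 22.2 and 20.99 at E17.5 and 38.6, 21.3 and 32.3 in EPDCs. At +19.6 kb E17.5 alone was low, at 0, 9.01 and 2.37 against 45.6, 35.6 and 56.1 at E11.5 and 43.4, 44.9 and 50.3 in EPDCs.

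**Figure D3:**
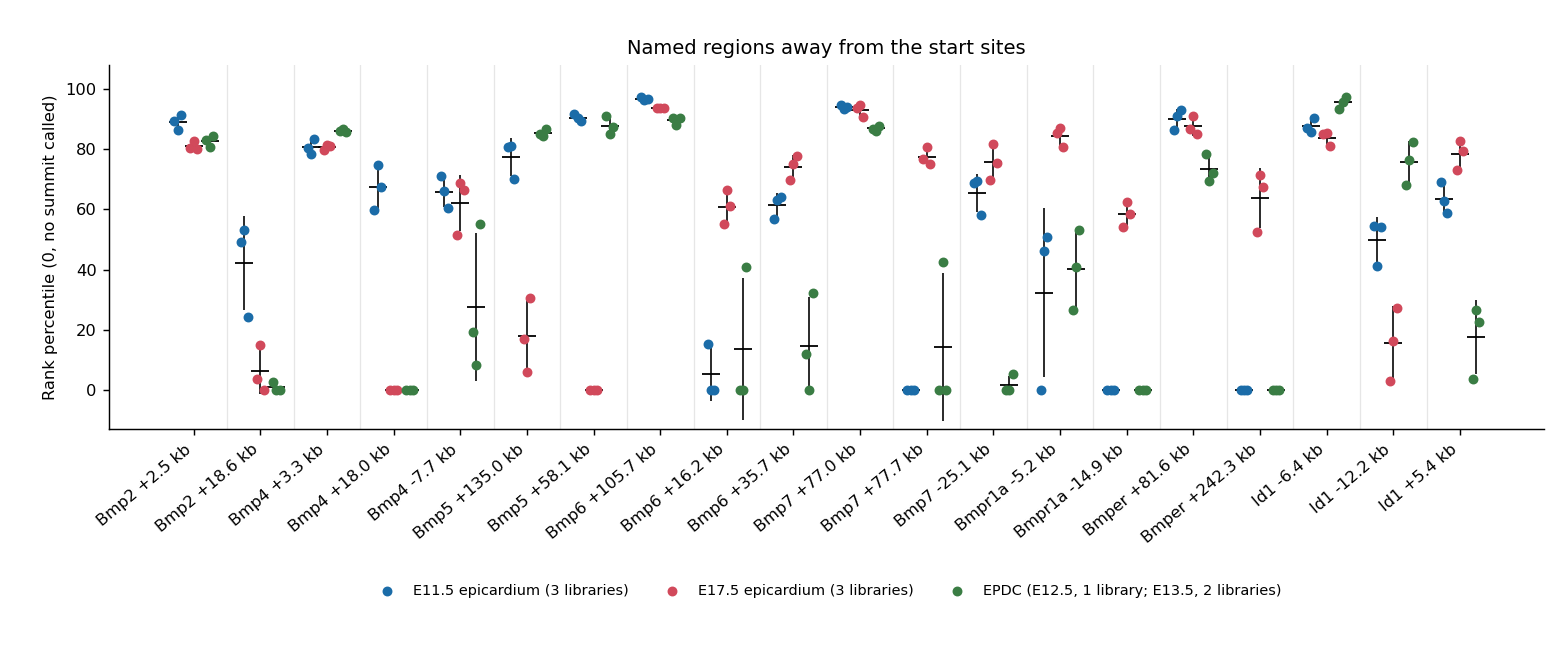
Rank percentile in each library of the named regions away from the start sites; points are libraries, horizontal marks the group mean and vertical lines 1 SD over 3 libraries, which can reach below 0. *Bmp5* +58.1 kb is at 0 in the E17.5 libraries alone, *Bmpr1a* −14.9 kb and *Bmper* +242.3 kb are above 0 in the E17.5 libraries alone, and *Bmp7* −25.1 kb is at most 5.19 in EPDCs.

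*Bmper* (chr9:23223076-23485200, + strand) encodes BMP-binding endothelial regulator, an extracellular protein that can restrain or promote the BMP signal depending on dose, and had 39 regions. The promoter region at +0.3 kb was at 93.6, 91.1 and 92.4 at E11.5, 87.4, 90.6 and 90.8 at E17.5 and 92.8, 95.3 and 94.4 in EPDCs. EPDCs were above E17.5 by 4.59 ± 1.24 points (adjusted p = 0.0136), a call lost on centred percentiles (0.455) and without E13.5 sample 1 (0.0541). A second promoter summit at −0.4 kb was called in the 6 epicardial libraries, at 71.4 to 80.7, and in no EPDC library, which is a difference of −76.9 ± 4.45 points from E11.5 (adjusted p = 4.86e-06). As with *Bmp7* +77.7 kb this was a matter of where summits fell, since by covering intervals the difference was 2.38 points (adjusted p = 0.232).

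Lower accessibility in EPDCs was measured along the *Bmper* gene body. The intronic region at +45.9 kb was at 86.3, 91.6 and 87.0 at E11.5, 85.1, 90.5 and 88.7 at E17.5 and 43.4, 38.8 and 43.1 in EPDCs. It was picked as the *Bmper* region with the smallest stage difference among those lower in EPDCs than at both stages in all 5 readings. Both differences follow from that choice and are given without a test. The stages differed by −0.18 ± 2.72 points, and EPDCs were lower than E11.5 by 46.5 ± 2.72 points with no overlap. Its window held none of the 5 motifs. At +81.6 kb, the strongest region beyond the promoter, the values were 86.3, 90.9 and 93.0, then 86.6, 91.2 and 85.2, then 78.5, 69.5 and 72.0, a smaller EPDC difference of −16.8 ± 2.76 points (adjusted p = 0.00128). The regions at +16.2 and +240.1 kb had the same order, lower in EPDCs than at E11.5 by 34.1 ± 5.48 and 45.8 ± 7.60 points. Others were high at E11.5 alone: +131.5 kb (74.8, 81.9 and 76.6 against 23.8 to 41.8 elsewhere), +156.0 kb (62.5, 54.3 and 61.2 against at most 11.8) and +177.0 kb (61.6, 72.1 and 66.9 against at most 40.7).

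The E17.5 libraries in turn held *Bmper* regions of their own. The intronic region at +242.3 kb was at 52.4, 71.4 and 67.3 at E17.5 and at 0 in the other 6 libraries, again a description, since only E17.5 brought it past the filter. Its neighbour at +240.1 kb was at 48.7 to 62.8 at both stages, so 2 regions near each other differed in stage pattern. Beyond the 3′ end, at +272.5 kb, the values were 23.0, 32.3 and 14.0 at E11.5, 71.5, 77.6 and 72.3 at E17.5 and 0, 0 and 7.39 in EPDCs. The stage rise was 50.7 ± 6.13 points (adjusted p = 0.000191). A region at +118.2 kb was higher in EPDCs, at 26.5, 19.2 and 43.7 against at most 1.39 in the epicardial libraries.

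*Grem1* (chr2:113746164-113758646, − strand) encodes Gremlin 1, a secreted antagonist that binds BMP2, BMP4 and BMP7, and had 4 regions, 2 of them tested and both at its promoter. The region at −0.1 kb was at 61.1, 65.5 and 52.3 at E11.5, 16.97, 37.0 and 24.1 at E17.5 and 67.3, 57.0 and 66.2 in EPDCs. That at +0.9 kb was at 54.2, 60.8 and 65.2, then 13.504, 14.8 and 7.25, then 51.8, 47.5 and 64.9. In both, every E17.5 library lay below every other library. The regions fell by 33.6 ± 6.51 points (adjusted p = 0.00274) and fell by 48.2 ± 6.17 points (adjusted p = 0.000270) from E11.5, and EPDCs were above E17.5 by 37.5 ± 6.51 (adjusted p = 0.00127) and 42.9 ± 6.17 points (adjusted p = 0.000409). EPDCs and E11.5 epicardium overlapped in both (adjusted p = 0.686 and 0.535). Ranked by fold enrichment, the −0.1 kb differences were −10.2 (adjusted p = 0.307) and 17.1 points (0.0870), while those at +0.9 kb passed. The promoter sequence shown above contains 1 GGCGCC. Upstream, a weak region at −3.6 kb was called in the E13.5 EPDC libraries only, at 22.6 and 5.62, and was not tested.

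**Figure D4:**
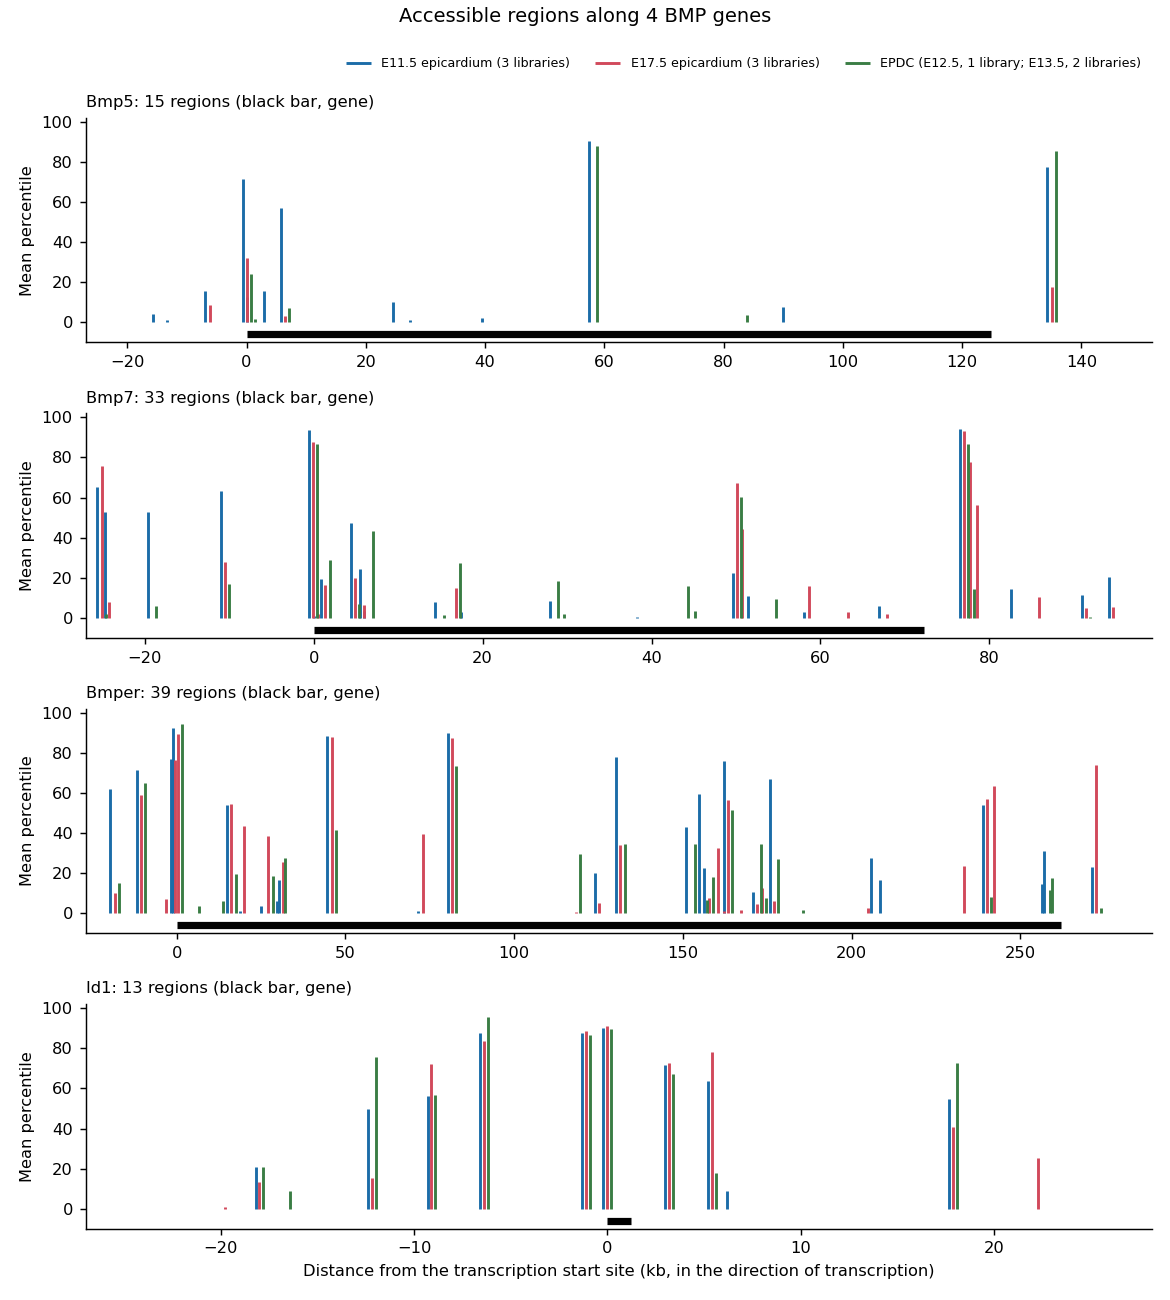
Mean rank percentile (vertical axis) of each accessible region against its distance from the transcription start site in kb (horizontal axis) for *Bmp5*, *Bmp7*, *Bmper* and *Id1*; lines are group means, drawn side by side, and the black bar is the gene. The E17.5 line is missing at *Bmp5* +58.1 kb, where E11.5 and EPDCs reach 90.5 and 87.8, and the EPDC line is highest at *Id1* −12.2 kb (75.6) and −6.4 kb (95.6).

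*Id1* (chr2:152736251-152737410, + strand), an inhibitor of DNA binding and a direct target of BMP-activated SMADs, had 13 regions over its short gene and flanks, 9 of them called in every library. The promoter was at 88.7, 90.2 and 91.9 at E11.5, 90.7, 92.9 and 90.6 at E17.5 and 90.6, 86.6 and 91.3 in EPDCs. The groups overlapped and the stage difference was 1.12 ± 1.47 points (adjusted p = 0.597), although on the log2 score (adjusted p = 0.00992) and on centred percentiles (0.00809) E17.5 was higher. The upstream regions differed more. At −12.2 kb the values were 54.4, 41.3 and 54.2 at E11.5, 2.82, 16.3 and 27.4 at E17.5 and 68.1, 76.5 and 82.3 in EPDCs, with no overlap between any of the groups. It fell by 34.5 ± 7.42 points between the stages (adjusted p = 0.00485) and was 60.1 ± 7.42 points higher in EPDCs than at E17.5 (adjusted p = 0.000169). The EPDC difference from E11.5 (25.7 ± 7.42, adjusted p = 0.0212) was lost without E11.5 replicate 2 (0.0841), E13.5 sample 1 (0.0673) or E13.5 sample 2 (0.0642). This window held 2 GGCGCC matches. At −6.4 kb the values were 87.0, 85.7 and 90.5, then 85.2, 85.3 and 81.1, then 93.4, 95.8 and 97.5, so EPDCs were above all epicardial libraries, by 7.83 ± 1.76 points over E11.5 (adjusted p = 0.00646). Downstream, +5.4 kb had the opposite order, with 69.1, 62.9 and 58.8 at E11.5, 73.0, 82.6 and 79.4 at E17.5 and 3.58, 26.6 and 22.7 in EPDCs, which were lower than E11.5 by 46.0 ± 6.62 points (adjusted p = 0.000621).

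Promoters of the wider pathway were then counted. Of 59 other BMP ligands, receptors, transducers, antagonists and targets, 55 had a promoter region, 54 were tested and 50 had one in all 9 libraries. Between the stages 11 were lower at E17.5 and 2 higher, of which 3 and 2 passed in all 5 readings (all tested regions, 31.0% lower and 11.4% higher, and 15.0% and 9.15% in all readings). Of 54 promoters neither count stands above these shares. Among the lower were the ligand genes *Bmp10* and *Gdf3*, and higher were *Bmp8b* and *Crim1*, the latter a membrane-bound BMP binder. The promoter of *Bmp10*, a ligand of cardiac trabeculation, was at 66.9, 73.4 and 67.8 at E11.5, at 0 in the E17.5 libraries and at 34.9, 31.8 and 51.4 in EPDCs. Its E17.5 libraries lay below all others, and EPDCs lay between the stages, lower than E11.5 (−30.1 ± 6.22 points, adjusted p = 0.00413) and higher than E17.5 (39.3 ± 6.22 points, adjusted p = 0.000697).

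Against E11.5, 4 of these promoters were lower in EPDCs and 4 higher, with 2 (*Bmp10* and *Chrdl1*) and 3 (*Eng*, *Crim1* and *Atoh8*) in all 5 readings, where 28.1% and 13.2% of all tested regions were called, and 14.9% and 10.3% in all readings. *Eng* encodes the co-receptor endoglin, and *Atoh8* a target of BMP signalling whose promoter was at 55.8, 55.2 and 52.1 at E11.5, 48.7, 52.8 and 57.7 at E17.5 and 71.2, 76.1 and 81.2 in EPDCs. Its EPDC libraries lay above all others by 21.8 ± 4.14 points over E11.5 (adjusted p = 0.00259). Against E17.5, 11 were higher in EPDCs and 1 lower, with 5 (among them *Bmp10*, *Eng*, *Chrdl2* and *Atoh8*) and 1 (*Bmp8b*) in all readings, against 24.7% and 19.8% of all tested regions, and 18.3% and 16.7% in all readings. None of the 6 genes listed as transducers (*Smad1*, *Smad4*, *Smad5*, *Smad9*, *Bmp1* and *Tll1*) passed in all readings in any comparison. In the main reading 1 of them, *Smad9*, was lower at E17.5. The promoter of *Bmp8b* was at 82.2 to 84.1 at E17.5, 45.7 to 65.0 at E11.5 and 16.9 to 52.4 in EPDCs.

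The 5 motifs were counted in the 201 bases around the summits as a description. GGCGCC was in 11 of the 125 tested members (8.8%) and in 5.2% of all tested regions. It was in 4 of the 15 members higher in EPDCs than at E17.5 in all 5 readings and in 0 of the 24 that were lower. The TEAD letters GGAATG were in 29 of 125 (23.2%, against 19.4% of all), and in 10 of the 24 members lower in EPDCs than at E11.5 (41.7%). TGANTCA was in 17 members (13.6%, against 16.0%), in 8 of the 24 lower in EPDCs than at E17.5 and in 0 of the 15 higher. AGATAA was in 13 members (10.4%, against 15.6%) and AGGTGT in 16 (12.8%, against 7.8%). Of the 6 promoters, those of *Grem1* and *Bmpr1a* held GGCGCC, which 11.9% of 32851 RefSeq promoters hold, that of *Bmp6* held AGGTGT (13.7%), and those of *Bmp4*, *Bmp5* and *Bmper* held none of the 5. A match of letters is not evidence of binding, and the numbers per set are small.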

How the data were processed

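Bulk ATAC-seq of sorted mouse cells was analysed from 9 peak lists. The authors ran the nf-core workflow for ATAC-seq (2.0) on 40 bp paired reads against mm10, and the threshold of their peak caller, MACS2 2.2.9.1, was a q-value of 0.01 with all summits of a peak listed. The deposited lists give for each summit a fold enrichment (a ratio over local background), a −log10 p and a −log10 q, and an offset to the summit. No value was normalised between libraries before deposit, and depth is not given.

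Here summits on chromosomes 1 to 19, X and Y were joined over the 9 libraries into regions of 501 bp, the weaker of overlapping regions being removed by depth-normalised score, and each summit was assigned to the nearest region centre within 500 bp. A region's value is the rank percentile of its strongest summit by −log10 p. Regions called in at least 3 libraries were tested with limma 3.58.1 (R 4.3.3; trended and robust variance, 3 groups, all 9 libraries), with Benjamini-Hochberg adjustment and a threshold of 0.05. Labels name the replicates as independent samples of pooled hearts. Alternatives were equal numbers of top regions, −log10 q of at least 5, no filter, log2(score + 1), rank by fold enrichment, interval overlap of at least 1 bp, centred libraries, 2 groups alone, E13.5 EPDCs alone, a replicate block, and each library left out; the 5 readings were joined into one count after the data were seen.

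Genes, starts and annotation came from GENCODE M21 and sequences from GRCm38.p6, the build of mm10. Named regions per gene were the strongest promoter region and the strongest other region over 9 libraries, and those with the greatest stage difference and the greatest EPDC difference. The member genes and lists were chosen with earlier results of these data known. A symbol of the pathway list was not matched, and an item of that list is counted but not reported here. Python 3.11.15, numpy 2.4.6, pandas 2.3.3, scipy 1.17.1 and matplotlib 3.10.9 were used. Assignment of a region to a gene is by distance alone.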

Additional observations from a re-analysis of the deposited data

Results flagged for a closer look

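The 3 EPDC lists held 783 summits on the mitochondrial genome and on sequences outside the assembled chromosomes, which no comparison above used, and the epicardial lists held 0. No BMP region lies there.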

How the results depend on the processing

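Of the 6 counts of BMP regions called (higher and lower in 3 comparisons), 4 moved by more than 1.5 times under some alternative. With centred libraries 31 regions were higher at E17.5 than at E11.5 in place of 16, with equal numbers of top regions 22 were lower in place of 41, and with −log10 q of at least 5 the regions higher in EPDCs than at E11.5 were 7 in place of 11. The equal numbers leave 101 members to test and the stricter threshold 109, in place of 125; the cause of these changes was not tested. Leaving out each library moved 3 of the 6 counts that far and gave 8 to 18 higher and 32 to 41 lower regions between the stages, 5 to 15 and 33 to 44 for EPDCs against E11.5, and 17 to 28 and 16 to 28 for EPDCs against E17.5. With the replicate number as a block the stage comparison gave 21 higher and 38 lower; the deviations of same-numbered libraries correlated at 0.028, 0.052 and −0.037, so the numbers were not taken to pair the samples. Of 56 called differences of named regions, 30 were called with the same sign under every alternative.

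Signs turned as follows. On centred percentiles the stage difference was 7.16 at *Bmp6* −0.1 kb, 4.26 at *Bmp6* +105.7 kb, 1.13 at *Bmp7* −0.1 kb and 6.41 at *Bmp7* +77.0 kb, and EPDCs against E11.5 gave 2.57 at *Bmp6* −0.1 kb. Ranked by fold enrichment, EPDCs against E11.5 gave 0.70 at *Bmp7* −0.1 kb and 0.11 at *Bmp7* +77.0 kb, and EPDCs against E17.5 gave 3.82 at *Bmp6* −0.1 kb and 12.51 at *Bmp7* +77.0 kb. By interval overlap *Bmp7* +77.7 kb gave −1.43 between the stages and −9.28 for EPDCs against E11.5, and *Bmper* −0.4 kb gave 2.38 and 6.13 for EPDCs against E11.5 and E17.5; in the last 4 a covering interval of a neighbouring summit supplies the value. Without read totals, a region under the caller's threshold cannot be told from closed chromatin.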

Other observations

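Within EPDCs, the E12.5 library and the 2 E13.5 libraries differed at some BMP regions. *Bmp6* +172.7 kb was at 6.83 at E12.5 and at 55.8 and 66.9 at E13.5, and *Bmp7* +6.5 kb at 10.47 and at 55.2 and 64.9. At the *Bmp7* region the epicardial libraries were between 0 and 9.67. With 1 library at E12.5 the difference has no replicate check. E13.5 sample 2, the list made from merged technical replicates, called 110 BMP regions, against 77 and 76 in the other EPDC libraries. It also called more regions in all, 118724 against 88282 and 95579, so the BMP shares were 0.0927%, 0.0872% and 0.0795%. *Bmp4* −7.7 kb was at 55.2 in that library and at 19.4 and 8.12 in the others, and *Bmper* −18.4 kb at 44.9 and at 0.816 and 0.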
